A study of Mus musculus with 30 samples.

Results

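The 10 genes described here, Fabp7, Slc1a3, Nes, Vim, Sparcl1, Ptprz1, Tnc, Ttyh1, Prom1 and Bcan, are markers of radial glia and were taken by symbol from the deposited gene counts, where each was found in 1 row of 25400. All 10 were among the 16582 genes with enough reads to be tested. They were followed in neuronal progenitor cells (NPCs) that were differentiated from mouse embryonic stem cells (ESCs) and whose poly(A) RNA was sequenced in 24 libraries of 8 lines, each line with 3. The comparisons ask which MBD proteins can stand in for MBD3 when ESCs enter the neuronal lineage.

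Radial glia are the neural stem cells of the developing brain and spinal cord. They span the neural wall with long processes, divide at the ventricle and give rise to neurons directly or through intermediate progenitors, and later to glia. They are recognised by intermediate filaments (Nes, Vim), a fatty acid carrier (Fabp7), a glutamate transporter (Slc1a3), proteins of the apical and process membranes (Prom1, Ttyh1), and secreted or surface proteins of the extracellular matrix (Bcan, Sparcl1, Tnc, Ptprz1). Several of them are kept by astrocytes, and Vim, Tnc and Sparcl1 are also made by mesenchymal or vascular cells.

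The ESCs were HA36CB1 cells, which carry a recombination site and the biotin ligase BirA. Besides the wild type (WT) there was an Mbd3 KO made with CRISPR guides against a pair of exons of Mbd3, and 6 lines in which the same Mbd3 KO carried a biotin-tagged construct at that site driven by CAG, a strong promoter. These constructs encoded MBD3a, MBD3ΔMBD (without the methyl-CpG binding domain), MBD2a (full length), MBD2aΔGR (without the glycine-arginine stretch), MBD2aR181C (with a substitution in the methyl-CpG binding domain) and MBD2t (the short isoform that ends before the coiled coil). MBD3 and MBD2 are alternative subunits of the NuRD complex, which joins histone deacetylases with a nucleosome remodeller. The R181C line is named after the sample labels, while its deposited columns read R64C. Libraries came from individually derived clones except for MBD2t, whose 3 libraries are repeats of 1 clone, so their spread leaves out clonal differences. The deposited columns name the line and a library number (s01 to s24), and these numbers are used below.

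Libraries held between 27993858 and 49392806 counted reads, so that 3 counts were worth 0.0607 to 0.115 CPM (reads relative to the library's total, scaled to library size by the TMM method). These floors cover counting error only. Mbd3 itself lay at 149 to 157 CPM in WT and at 34.2, 73.8 and 69.1 CPM in Mbd3 KO, so part of its reads remained in the KO. It had 193, 168 and 198 CPM in MBD3a and 423, 496 and 426 CPM in MBD3ΔMBD. Reads on Mbd2 rose in MBD2aΔGR (280, 451 and 700 CPM), MBD2aR181C (253, 256 and 325 CPM) and MBD2t (335, 356 and 340 CPM), against 65.3, 64.2 and 70.9 CPM in Mbd3 KO. In the line labelled MBD2a they were at 87.2, 86.3 and 67.0 CPM. This did not differ from Mbd3 KO (log2 fold change 0.26 with a standard error of 0.21, adjusted p = 0.508 in the quasi-likelihood test of edgeR), so the counts give no check of that label. Against MBD2a, reads on Mbd2 were higher in MBD2aΔGR (log2 fold change 2.57) and MBD2aR181C (1.79). Comparisons of these lines with MBD2a therefore also differ in Mbd2 reads. The paper reported equal MBD2a and MBD2aΔGR protein by Western blot in ESCs.

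To place the genes, the 250 bases before the annotated start were read from RefSeq promoters of GRCm38.p6, in which 9 of the 10 genes had 11 promoters. MBD2 binds methylated CG dinucleotides, so the windows of 4 genes that run from few to many CGs are shown here with each CG in capitals, unmethylated and methylated CGs not being told apart by sequence. Each is written 5′ to 3′ on the plus strand, which is also the strand of the gene.
Fabp7, chr10:57784673-57784922: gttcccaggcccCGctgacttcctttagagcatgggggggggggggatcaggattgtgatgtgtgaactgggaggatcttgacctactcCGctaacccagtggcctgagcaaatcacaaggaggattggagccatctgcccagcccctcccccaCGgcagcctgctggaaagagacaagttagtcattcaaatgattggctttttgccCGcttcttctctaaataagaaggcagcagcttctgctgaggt
Vim, chr2:13574061-13574310: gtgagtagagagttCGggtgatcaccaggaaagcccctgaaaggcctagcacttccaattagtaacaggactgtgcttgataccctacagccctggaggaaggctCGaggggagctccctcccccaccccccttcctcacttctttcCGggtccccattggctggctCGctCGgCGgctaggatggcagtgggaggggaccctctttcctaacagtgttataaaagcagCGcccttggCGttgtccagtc
Nes, chr3:87970843-87971092: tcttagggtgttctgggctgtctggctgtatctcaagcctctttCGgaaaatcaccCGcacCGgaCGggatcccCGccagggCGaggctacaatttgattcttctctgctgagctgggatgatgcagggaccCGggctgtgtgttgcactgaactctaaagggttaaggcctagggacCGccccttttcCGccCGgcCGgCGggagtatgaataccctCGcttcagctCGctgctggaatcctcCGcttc
Ptprz1, chr6:22875252-22875501: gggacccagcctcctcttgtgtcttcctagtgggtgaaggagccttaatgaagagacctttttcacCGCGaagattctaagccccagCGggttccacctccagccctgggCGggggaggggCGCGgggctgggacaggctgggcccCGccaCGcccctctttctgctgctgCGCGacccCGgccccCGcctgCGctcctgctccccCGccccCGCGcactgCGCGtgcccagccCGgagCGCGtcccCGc

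The Fabp7 window held 4 CGs, that of Vim 8, that of Nes 15 and that of Ptprz1 22. Over all 32851 promoters the median was 6 CGs, with quartiles of 2 and 16. Of the other genes, Slc1a3 had 2 CGs, Prom1 3 and 9 at its 2 starts, Tnc 8 and 10, Ttyh1 10 and Bcan 16. The genes thus spread from the lower quartile of mouse promoters to above the upper one, and a link of CG number to expression was not tested. Motifs were searched on both strands of the whole promoter sequence, which runs past the annotated start, beyond these windows. The RBPJ-type motif TGGGAA was in 4 of the 11 promoters (Fabp7, Prom1 and both of Tnc) and in 25.6% of all promoters. The octamer ATGCAAAT was in the 2 overlapping windows of Tnc and in 1.74% of all promoters, and the NFI motif, TTGGC and GCCAA with any 5 bases between them, was in none of the 11 and in 0.0365% of all.

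Most of the markers were lower in NPCs without Mbd3. Against WT, 8 of the 10 genes were called lower in Mbd3 KO NPCs and none higher, where 14.2% of all genes tested were called lower at an adjusted p-value under 0.05 and a log2 fold change beyond 1. For the same 8 genes the 3 KO libraries lay below the 3 WT libraries, as for 31.1% of all genes tested. The median log2 fold change of the 10 genes was -2.32 against -0.03 over all genes. In bulk RNA, fewer cells of a type and less RNA per cell cannot be told apart.

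Fabp7 (chromosome 10, 57504687 to 57508256, plus strand, mm9), the brain fatty acid binding protein of radial glia, changed the most. It had 65.7, 41.3 and 35.7 CPM in WT and 0.34, 0.38 and 0.29 CPM in Mbd3 KO, the latter from 12, 17 and 11 reads. The groups were far apart, with a log2 fold change of -7.12 ± 0.62 (adjusted p = 8.21e-08). Slc1a3 (chromosome 15, 8584124 to 8660764, minus strand), the glial glutamate transporter GLAST, had 50.3, 78.1 and 92.2 CPM in WT and 6.26, 21.5 and 23.8 CPM in the KO. It fell by 2.09 ± 0.39 on the log2 scale (adjusted p = 0.000163), and its lowest KO library was well below the other two.

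Both intermediate filament genes fell. Vim (chromosome 2, 13495554 to 13504453, plus strand), which encodes vimentin, had 1176, 1021 and 967 CPM in WT and 21.8, 98.1 and 92.7 CPM in Mbd3 KO, a log2 fold change of -3.89 ± 0.46 (adjusted p = 1.59e-06). Nes (chromosome 3, 87775000 to 87784373, plus strand), which encodes nestin, had 340, 290 and 215 CPM in WT and 58.9, 89.5 and 77.4 CPM in the KO (-1.90 ± 0.22, adjusted p = 1.14e-06). No KO library of either gene reached the WT range. Per length of exon, Vim was the most abundant of the 10 genes in WT with a mean of 452 RPKM (CPM per kilobase of exon), followed by Nes with 43.9 and Fabp7 with 38.1, and Tnc was the lowest with 0.28. In Mbd3 KO Vim and Nes were still first with 30.4 and 11.7 RPKM, while Fabp7 was ninth with 0.27.

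Both membrane protein genes fell. Prom1 (chromosome 5, 44384864 to 44493271, minus strand), the pentaspan protein CD133 of apical protrusions, had 98.6, 86.5 and 94.7 CPM in WT and 22.5, 28.5 and 32.3 CPM in Mbd3 KO (-1.75 ± 0.18, adjusted p = 3.39e-07). Ttyh1 (chromosome 7, 4071010 to 4088308, plus strand), a tweety family membrane protein, had 53.0, 39.4 and 22.4 CPM in WT and 7.0, 6.68 and 5.87 CPM in the KO (-2.55 ± 0.44, adjusted p = 6.59e-05). Both were apart between the groups, and Prom1 was the steadier within WT. Prom1, Ttyh1, Sparcl1 and Tnc share exonic sequence with genes on the opposite strand, and since the strand setting of the counting is not given in the sources used here, their levels are uncertain to that extent.

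The matrix genes split. Bcan (chromosome 3, 87791453 to 87804278, minus strand), the brain proteoglycan brevican, had 2.84, 2.28 and 2.99 CPM in WT and 0.29, 0.46 and 0.34 CPM in Mbd3 KO (-2.86 ± 0.42, adjusted p = 1.38e-05). It is the next annotated gene after Nes, 7079 bases away, and both fell. Sparcl1 (chromosome 5, 104508130 to 104543107, minus strand), the secreted matricellular protein hevin, had 85.2, 51.2 and 24.7 CPM in WT and 0.80, 9.36 and 8.01 CPM in the KO (-3.13 ± 0.65, adjusted p = 0.000438). All KO libraries were below WT, but they spanned more than those of any other of the genes, with an SD of 1.96 in log2 CPM.

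Ptprz1 and Tnc were not called in Mbd3 KO. Ptprz1 (chromosome 6, 22825502 to 23002916, plus strand), a receptor tyrosine phosphatase that is itself a proteoglycan, had 6.79, 7.12 and 2.78 CPM in WT and 1.86, 3.83 and 3.46 CPM in the KO. Its log2 fold change of -0.85 ± 0.35 passed the adjusted p-value (0.0422) but not the fold change, and it was called without WT library s03 (-1.18, adjusted p = 0.00406) or without KO library s05 (-1.05, adjusted p = 0.0401). Tnc (chromosome 4, 63620819 to 63681760, minus strand), the matrix glycoprotein tenascin-C of the stem cell niche, had 2.31, 3.30 and 0.66 CPM in WT and 0.51, 3.67 and 4.02 CPM in the KO. These overlapped fully, and its log2 fold change of 0.43 ± 0.62 (adjusted p = 0.569) was within its error.

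**Figure D1:**
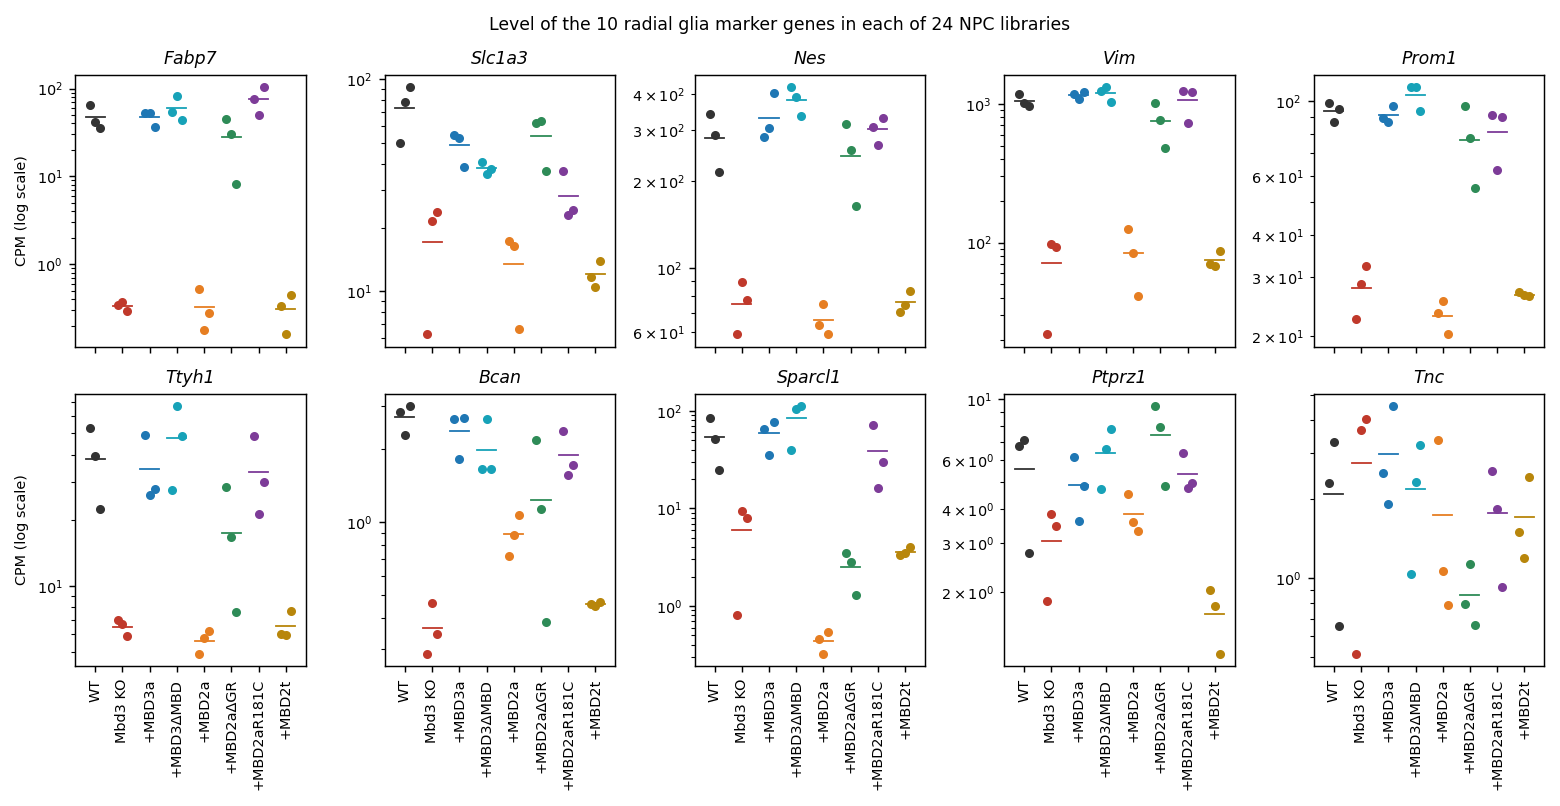
CPM on a log axis (y) of each of the 10 genes in the 3 libraries (points) of the 8 lines (x), with the line's mean as a bar. Fabp7 sits between 0.16 and 0.52 CPM in Mbd3 KO, MBD2a and MBD2t and between 8.20 and 104 CPM elsewhere, Sparcl1 is also low in MBD2aΔGR, and the libraries of most lines overlap for Tnc.

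Within Mbd3 KO, library s04 was the lowest of the 3 in 8 of the 10 genes, where 44.6% of all genes tested were lowest there. The same library had the highest summed level of pluripotency markers in the line (1094 CPM against 594 and 361). The part of this in the spread of the markers was not tested. Without s04, 8 of the 10 genes were called lower than in WT. With each WT or KO library left out in turn, 8 or 9 of the 10 genes were called lower.

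The markers were back near WT levels with MBD3, whether or not it had its methyl-CpG binding domain. Mbd3 reads were higher with MBD3ΔMBD than with MBD3a, and the part of this was not tested. Against Mbd3 KO, 8 of the 10 genes were called higher with MBD3a (13.5% of all genes tested) and 9 with MBD3ΔMBD (15%), and these comparisons share the KO libraries. Against WT none of the 10 was called in either line by edgeR, where 0% and 0.0181% of all genes tested were called. At an unadjusted p-value under 0.05, 0 genes differed with MBD3a and 2 with MBD3ΔMBD, and DESeq2 called 0 in both. The matching shares of all genes tested were not determined. The median log2 fold change of the 10 genes against WT was -0.03 for MBD3a and 0.20 for MBD3ΔMBD.

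Fabp7 returned to 52.2, 52.0 and 36.6 CPM with MBD3a and to 53.5, 81.6 and 44.1 CPM with MBD3ΔMBD, which overlapped WT in both cases. Nes reached 331 ± 63.8 CPM and 383 ± 44.7 CPM (SD, n = 3) against 282 ± 62.9 in WT, and Vim 1155 ± 70.6 and 1197 ± 154 CPM against 1054 ± 108. Slc1a3 came back least, with 54.8, 53.1 and 38.5 CPM with MBD3a and 40.7, 35.6 and 37.7 CPM with MBD3ΔMBD. The latter lay below every WT library, at a log2 fold change of -0.95 ± 0.38 that did not pass (adjusted p = 0.643). Prom1, Ttyh1 and Bcan overlapped WT or exceeded it in both lines. Prom1 had 89.0, 86.9 and 97.1 CPM with MBD3a and 110, 110 and 93.7 CPM with MBD3ΔMBD, and Ttyh1 had 49.1, 26.0 and 27.8 CPM and 27.7, 66.7 and 48.7 CPM. Bcan had 2.64, 1.81 and 2.67 CPM and 1.64, 2.65 and 1.65 CPM, at a log2 fold change of -0.45 against WT with MBD3ΔMBD that was not called. Sparcl1 varied between libraries, with 64.8, 34.8 and 76.2 CPM with MBD3a and 39.9, 105 and 111 CPM with MBD3ΔMBD, around the WT range of 24.7 to 85.2 CPM.

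Ptprz1 was called against Mbd3 KO with MBD3ΔMBD (1.06 ± 0.35, adjusted p = 0.0122) and not with MBD3a (0.67 ± 0.36, adjusted p = 0.115), a difference between the lines that was not tested. Without KO library s04 the calls of Slc1a3 (0.75, adjusted p = 0.0667) and Ptprz1 (0.82, adjusted p = 0.0639) were lost for MBD3ΔMBD, and that of Ptprz1 also without library s12 (0.85, adjusted p = 0.0781).

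To compare genes of different fold change, the mean log2 CPM of each line was placed between Mbd3 KO (0%) and WT (100%) for the 8 genes that fell in the KO. With MBD3a they stood between 75.2% (Slc1a3) and 113% (Nes), and with MBD3ΔMBD between 60.0% (Slc1a3) and 124% (Nes). These positions are descriptive, since Mbd3 KO and WT define them.

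**Figure D2:**
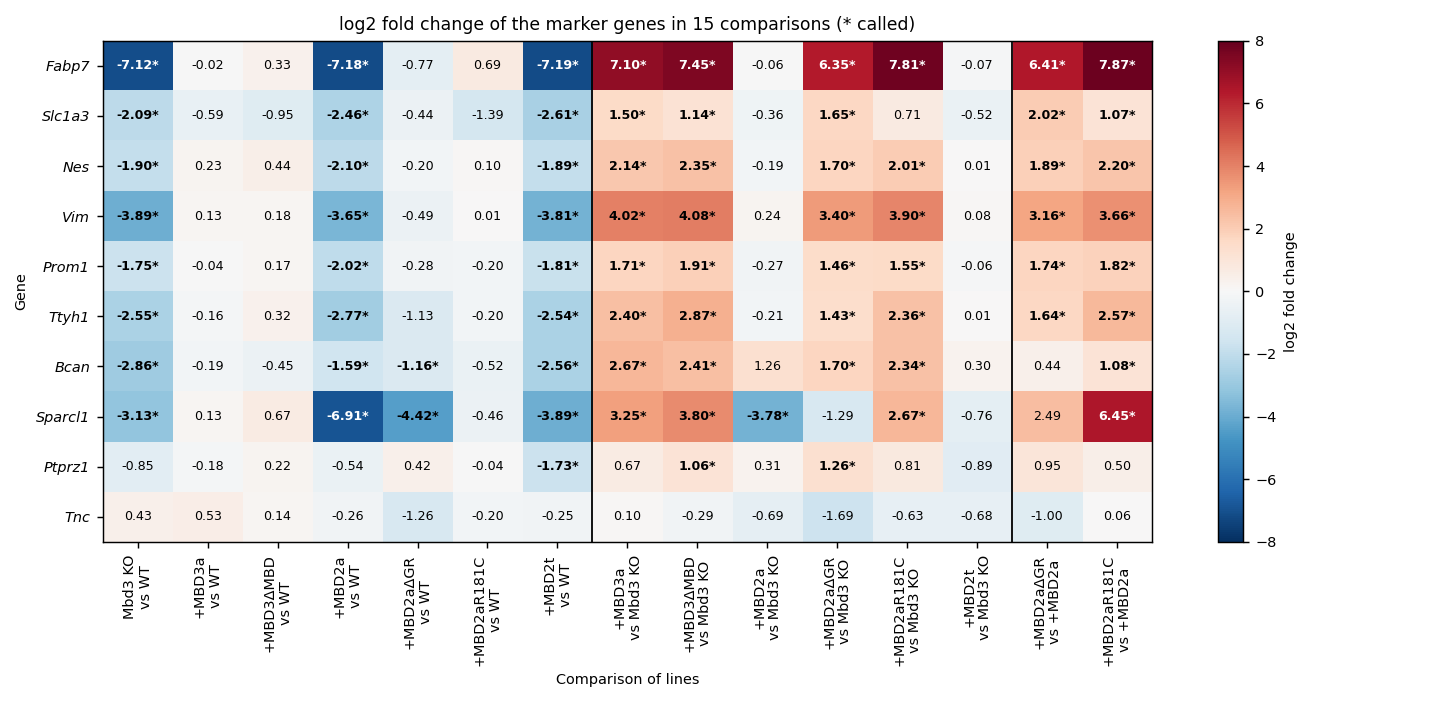
Log2 fold change (colour and number) of the 10 genes (rows) in 15 comparisons of lines (columns, separated by vertical lines into those against WT, Mbd3 KO and MBD2a), with calls marked by an asterisk. The columns of Mbd3 KO, MBD2a and MBD2t against WT hold calls of lower expression in 8 or 9 of the genes, and those of MBD3a, MBD3ΔMBD and MBD2aR181C against WT hold no call.

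With MBD2a or MBD2t none of the 10 markers was called higher than in Mbd3 KO. Against WT, 8 of the 10 genes were called lower in the line labelled MBD2a (13.7% of all genes tested) and 9 in MBD2t (15.1%), and none higher. The medians of the 10 genes were -2.28 and -2.55, against -0.01 and -0.04 over all genes. Against Mbd3 KO, 1 gene was called lower and none higher in MBD2a, where 4.4% of all genes tested were called lower. No gene was called in MBD2t by edgeR, where 0.0241% of all genes tested were called in either direction. There, 1 gene (Ptprz1, -0.89 ± 0.38) was under an unadjusted p-value of 0.05, and DESeq2 called 0.

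Fabp7 had 0.52, 0.18 and 0.28 CPM in MBD2a and 0.33, 0.16 and 0.44 CPM in MBD2t, all within or beside the range of Mbd3 KO. Vim had 126, 83.5 and 41.5 CPM in MBD2a and 69.8, 68.3 and 87.3 CPM in MBD2t. Its differences from the KO were 0.24 ± 0.41 (adjusted p = 0.793) and 0.08 ± 0.41 (adjusted p = 1). Nes (63.4, 74.9 and 59.3 CPM in MBD2a; 70.6, 74.2 and 83.0 CPM in MBD2t) and Ttyh1 (4.89, 5.77 and 6.19 CPM; 6.03, 5.99 and 7.66 CPM) also overlapped the KO in both lines. Slc1a3 had 17.2, 16.4 and 6.68 CPM in MBD2a and 11.6, 10.5 and 14 CPM in MBD2t, within its KO range. Prom1 had 23.4, 25.4 and 20.2 CPM in MBD2a and 27.0, 26.5 and 26.2 CPM in MBD2t, and no library of either line reached that of WT.

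Among the 8 genes that fell in Mbd3 KO, Bcan stood nearest to WT in MBD2a, with 0.72, 0.88 and 1.07 CPM, above every KO library and below every WT library. Its difference from the KO, 1.26 ± 0.49, did not pass (adjusted p = 0.124). In MBD2t, Ptprz1 was called lower than WT as well, with 2.04, 1.78 and 1.19 CPM and a log2 fold change of -1.73 ± 0.37 (adjusted p = 0.000512).

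The gene that was lower in MBD2a than in Mbd3 KO was Sparcl1. It had 0.46, 0.32 and 0.54 CPM, from 11 to 21 reads, against 0.80, 9.36 and 8.01 CPM in the KO. The log2 fold change was -3.78 ± 0.91 (adjusted p = 0.0126), and against WT it was -6.91 ± 0.88 (adjusted p = 6.73e-06). The groups did not overlap, but KO library s04 came close to MBD2a. The call was lost without KO library s05 (-3.32, adjusted p = 0.0561), MBD2a library s13 (-3.82, adjusted p = 0.0547) or MBD2a library s14 (-3.60, adjusted p = 0.0688), in a fit of only both lines (adjusted p = 0.107) and with glmTreat, which tests against the fold change threshold (adjusted p = 0.109).

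With MBD2a that lacked its glycine-arginine stretch most of the markers were high again. Mbd2 reads were also higher there than in the line labelled MBD2a, and the part of this was not tested. In MBD2aΔGR, 8 of the 10 genes were called higher than in Mbd3 KO (9.86% of all genes tested) and 6 higher than in MBD2a (8.02%), again with shared libraries. The 6 were Fabp7 (6.41 ± 0.63, adjusted p = 2.82e-06), Vim (3.16), Slc1a3 (2.02), Nes (1.89), Prom1 (1.74) and Ttyh1 (1.64). Against WT, Sparcl1 and Bcan were called lower, where 2.47% of all genes tested were, and the median of the 10 genes was -0.63 against -0.01 over all genes.

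Fabp7 had 45.2, 30.2 and 8.20 CPM in MBD2aΔGR, Nes 315, 255 and 163 CPM and Vim 1016, 760 and 478 CPM. Each overlapped WT in at least its highest library, and each was lowest in library s18. On the scale from Mbd3 KO to WT, Fabp7, Slc1a3, Nes, Vim and Prom1 stood between 80.8% and 87.9%. Ttyh1 (28.3, 16.8 and 7.59 CPM) stood at 50.1% and Bcan (2.18, 1.13 and 0.39 CPM) at 49.9%. DESeq2 also called Ttyh1 lower than WT (-1.14, adjusted p = 0.0497). The call of Bcan against WT (-1.16 ± 0.35, adjusted p = 0.0467) was near the threshold and was lost without library s17 (-1.14, adjusted p = 0.108), library s18 (-0.72, adjusted p = 0.274) or any WT library (adjusted p from 0.0746 to 0.135). Ttyh1 (-1.13 ± 0.41, adjusted p = 0.0888) was called without WT library s03 (-1.40, adjusted p = 0.0440) or without library s16 (-1.69, adjusted p = 0.0140), as Fabp7 was without s16 (-1.35, adjusted p = 0.0341). Without s16 the calls of Ttyh1 (0.86, adjusted p = 0.133) and Bcan (0.96, adjusted p = 0.112) against Mbd3 KO and of Ttyh1 against MBD2a (1.08, adjusted p = 0.0897) were lost.

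Sparcl1 did not return with MBD2aΔGR. Its libraries had 3.47, 2.80 and 1.30 CPM, 47 to 113 reads, against 24.7 to 85.2 CPM in WT. The log2 fold change against WT was -4.42 ± 0.72 (adjusted p = 0.00232) and lay between -4.76 and -3.94 with each library left out, with an adjusted p-value of at most 0.0248, while a fit of only both lines gave an adjusted p-value of 0.0567. Against Mbd3 KO it was -1.29 ± 0.71 (adjusted p = 0.145), and -1.79 without KO library s04 (adjusted p = 0.0291). Against MBD2a it was 2.49 ± 1.00 (adjusted p = 0.0605) with no overlap of libraries, and 2.81 without library s18 (adjusted p = 0.0484). On the scale from Mbd3 KO to WT Sparcl1 thus stood at -20.9% in MBD2aΔGR and at -86.9% in MBD2a, where the other 7 genes stood between 49.9% and 87.9% and between -14.9% and 43.9%.

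**Figure D3:**
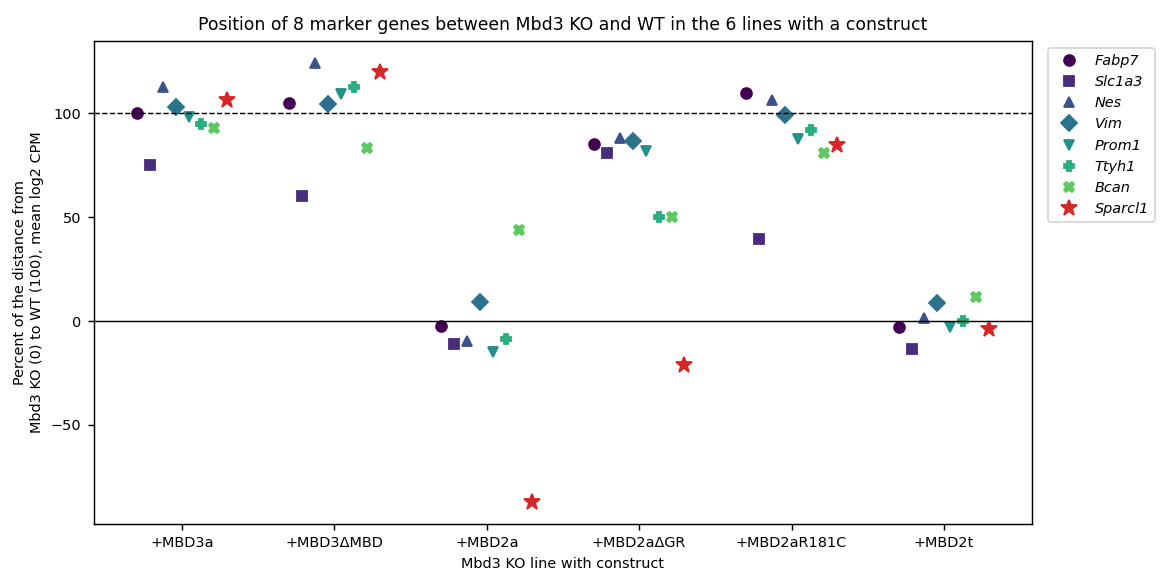
Position (y, percent) of the mean log2 CPM of 8 genes (symbols) between Mbd3 KO (0, solid line) and WT (100, dashed line) in the 6 lines with a construct (x). In MBD2aΔGR, Sparcl1 (red star) sits at -20.9% and the other 7 genes at 49.9% or above.

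Ptprz1 and Tnc took opposite places in MBD2aΔGR. Ptprz1 had 9.43, 7.95 and 4.85 CPM, the highest mean of the 8 lines, and was called higher than in Mbd3 KO (1.26 ± 0.34, adjusted p = 0.00558), while its difference from WT, 0.42 ± 0.33, was not called (adjusted p = 0.445). Against MBD2a it passed the adjusted p-value (0.0364) but not the fold change (0.95 ± 0.34), and it was called without MBD2a library s13 (1.09, adjusted p = 0.0451) or without library s18 (1.19, adjusted p = 0.0110). Tnc had 0.80, 1.13 and 0.66 CPM, from 24 to 38 reads, the lowest mean of the 8 lines. Its log2 fold change was -1.26 ± 0.75 against WT (adjusted p = 0.296) and -1.69 ± 0.72 against Mbd3 KO (adjusted p = 0.0613), the latter called without KO library s04 (-2.15, adjusted p = 0.0132).

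The 3 MBD2aΔGR libraries were unlike each other. Library s18 was the lowest in all 10 genes, where 42.7% of all genes tested were lowest there. The summed level of the 10 genes was 1579, 1217 and 756 CPM in s16, s17 and s18. In s18, 9 primitive endoderm markers summed to 13597 CPM, against 1059 and 779 CPM in s16 and s17 and 489 to 642 CPM in WT. In the line 7 of the 9 were called higher than in WT, where 2.69% of all genes tested were. Pluripotency markers summed to 72.0, 198 and 389 CPM and neuronal markers to 2148, 1197 and 778 CPM in s16, s17 and s18. Reads on Mbd2 were also highest in s18, at 700 CPM. The part of these in the lower level of the radial glia genes was not tested. Sparcl1 was below WT in s16 and s17 as well, at 3.47 and 2.80 CPM, and without s18 its log2 fold change against WT was -4.10 (adjusted p = 0.0248). Without s18, 1 of the 10 genes was called against WT, 8 against Mbd3 KO and 8 against MBD2a.

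The substitution in the methyl-CpG binding domain of MBD2a also went with restored markers. Mbd2 reads were again higher than in the line labelled MBD2a, and the part of this was not tested. In MBD2aR181C, 7 of the 10 genes were called higher than in Mbd3 KO (13% of all genes tested) and 8 higher than in MBD2a (12.2%). Against WT none of the 10 was called by edgeR, where 0.0181% of all genes tested were, while 1 was under an unadjusted p-value of 0.05 and DESeq2 called 0. Fabp7 reached 76.8, 49.3 and 104 CPM, the highest mean of the 8 lines, and overlapped WT (0.69 ± 0.40, adjusted p = 0.999). Sparcl1, with 71.0, 16 and 29.7 CPM, was 6.45 ± 0.88 above MBD2a on the log2 scale (adjusted p = 1.6e-05). Vim and Nes had 1059 ± 289 and 302 ± 32.2 CPM (SD, n = 3).

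Ttyh1, Prom1 and Bcan reached 48.6, 21.4 and 30.1 CPM, 91.1, 62.6 and 89.9 CPM, and 2.36, 1.56 and 1.72 CPM, each with 1 or more libraries within the WT range. Library s20 was the lowest of its line in 9 of the 10 genes (37.4% of all genes tested) and had the highest sum of pluripotency markers in the line (346 CPM against 31.2 and 135), and the part of this was not tested.

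Slc1a3 lagged behind. It had 37.1, 22.9 and 24.2 CPM in MBD2aR181C, below every WT library (50.3 to 92.2 CPM) and overlapping Mbd3 KO (6.26 to 23.8 CPM). It stood at 39.3% of the distance from Mbd3 KO to WT, while the other 7 genes stood between 81.0% and 110%. Its log2 fold change was -1.39 ± 0.38 against WT, which was under an unadjusted p-value of 0.05 but not the adjusted one (0.757), 0.71 ± 0.38 against Mbd3 KO (adjusted p = 0.125) and 1.07 ± 0.39 against MBD2a (adjusted p = 0.0285). The call against MBD2a was lost without MBD2a library s15 (0.74, adjusted p = 0.146) or MBD2aR181C library s19 (0.78, adjusted p = 0.153). The call of Bcan against MBD2a (1.08 ± 0.38, adjusted p = 0.0226) was lost without MBD2a library s13 (0.94, adjusted p = 0.0785) or s14 (1.04, adjusted p = 0.0624) or library s19 (0.84, adjusted p = 0.131). Slc1a3 was thus the gene with the lowest position with MBD3a, MBD3ΔMBD and MBD2aR181C, and MBD2aΔGR, at 62.0, 63.5 and 37.1 CPM, had its highest mean after WT.

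Ordered by mean CPM, the lines fell into the same upper and lower sets for 8 of the 10 genes, Sparcl1 and Tnc being the exceptions. WT, MBD3a, MBD3ΔMBD, MBD2aR181C and MBD2aΔGR stood above Mbd3 KO, MBD2a and MBD2t, and MBD2aΔGR was the lowest of the upper set except for Slc1a3 and Ptprz1. For Fabp7, Nes, Vim and Prom1 the libraries of MBD2aΔGR did not overlap those of the next line below. That line was Mbd3 KO for Fabp7 and Prom1, MBD2t for Nes and MBD2a for Vim. Of all genes tested, 27.6% had all MBD2aΔGR libraries above Mbd3 KO and 21.7% had them above MBD2a. Most other neighbours in the order overlapped. For Sparcl1 the order was MBD3ΔMBD, MBD3a, WT and MBD2aR181C, whose libraries overlapped from one to the next, then with a gap Mbd3 KO, MBD2t and MBD2aΔGR, and after another gap MBD2a. For Tnc no line stood apart except that MBD2aΔGR, at the bottom, did not overlap MBD2t above it.

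Across the 24 libraries the 8 genes that fell in Mbd3 KO moved with each other, with Pearson correlations of log2 CPM from 0.63 (Slc1a3 and Sparcl1) to 0.984 (Nes and Prom1) and a median of 0.855 over 28 pairs. Ptprz1 correlated with them at 0.443 to 0.743 and Tnc at 0.0765 to 0.475. These values are descriptive, since the libraries of a line share their genotype and all 24 share the gap between lines. Among the other 12806 genes compared, the closest to Vim were Ivns1abp (0.993), Hoxb7 (0.993) and Hoxb8 (0.992), and the closest to Fabp7 were Msx3 (0.991), Phyhipl (0.987) and Slc26a7 (0.987). Nes was closest to Tox3 (0.987) and Prom1 to Zfp422 (0.988). Sparcl1 was closest to S1pr3 (0.968), Cdh13 (0.961) and Rbfox3 (0.956), Slc1a3 to Fgfrl1 (0.965), Ptprz1 to Ust (0.928), Tnc to Tgfbi (0.88), Ttyh1 to Asphd2 (0.991) and Bcan to Pbx4 (0.968).

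Of 9 markers of mesenchyme and smooth muscle, 5 were called lower and 1 higher in Mbd3 KO and 6 lower in MBD2aΔGR, against WT. In MBD2a 6 were called lower and 1 higher, and in MBD2t 5 lower and 1 higher. Of all genes tested, 14.2% were called lower in Mbd3 KO, 2.47% in MBD2aΔGR, 13.7% in MBD2a and 15.1% in MBD2t. Called higher were 19.6% in Mbd3 KO, 16.9% in MBD2a and 18.2% in MBD2t. The summed level of the 9 markers over the 24 libraries correlated at 0.74 with Sparcl1 and 0.70 with Tnc, and at 0.213 to 0.581 with the other 8 genes. Around the line means the correlation was 0.737 for Sparcl1, 0.726 for Ptprz1, 0.697 for Tnc and 0.682 for Ttyh1. Other lists went with Sparcl1 as closely, with correlations of 0.834 for neurons and -0.842 for pluripotent cells over all libraries and of 0.839 for astrocytes and -0.777 for pluripotent cells around the line means. For Tnc, the sums of neurons and astrocytes correlated at 0.195 and 0.0861 over all libraries and at 0.571 and 0.675 around the line means. Ptprz1 correlated around the line means at 0.748 with neurons, 0.611 with astrocytes and -0.752 with pluripotent cells. For Ttyh1 these values were 0.677, 0.313 and -0.776. In WT the sum was 481, 271 and 144 CPM in the same order as Sparcl1 (85.2, 51.2 and 24.7 CPM), in MBD3ΔMBD it was 178, 560 and 735 CPM with Sparcl1 at 39.9, 105 and 111 CPM, and the library that was lowest in Sparcl1 was also lowest in the sum in 6 of 8 lines, as it was in the sum of neuronal or of endothelial markers. The sum was lowest in MBD2aΔGR, at 30.6 to 79.6 CPM. It was 123 to 213 CPM in Mbd3 KO and 95.9 to 152 CPM in MBD2a, and libraries with like sums differed in Sparcl1, which had 24.7 CPM in WT library s03 (sum 144 CPM), 16 CPM in MBD2aR181C library s20 (sum 130 CPM) and 0.32 CPM in MBD2a library s14 (sum 125 CPM). Of 4 endothelial markers, 3 were called lower than WT in MBD2aΔGR, with a sum of 9.75 to 13.3 CPM against 50.2 to 67.0. In MBD2a 2 were called lower and 1 higher, with a sum of 20.6 to 31.3 CPM, and in MBD2t 3 were called higher. Over the 24 libraries Sparcl1 correlated with the endothelial sum at 0.253. The part of such cells in the level of Sparcl1 was not tested.

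**Figure D4:**
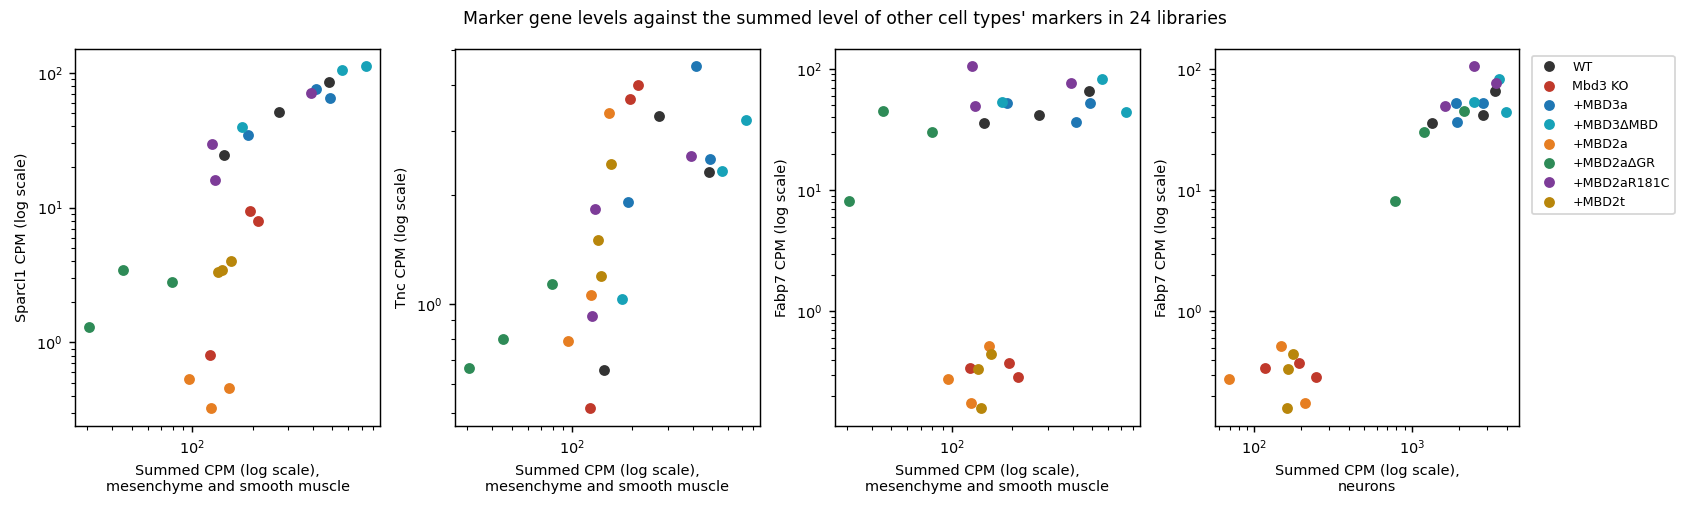
CPM of Sparcl1, Tnc and Fabp7 (y, log axes) against the summed CPM of 9 mesenchyme and smooth muscle markers (first 3 panels) or 12 neuronal markers (last panel; x, log axes), 1 point per library and coloured by line. Sparcl1 and Tnc rise with the mesenchymal sum (r = 0.74 and 0.70), Fabp7 less so (0.318), and Fabp7 and the neuronal sum split the libraries into the same high and low groups.

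Markers of other cell types also changed in Mbd3 KO, and not all in the direction of the radial glia genes. There, 14.2% of all genes tested were called lower than in WT and 19.6% higher. All 12 neuronal genes were called lower than in WT, with a median log2 fold change of -4.36 and a sum of 117 to 247 CPM against 1345 to 3349. All 9 pluripotency genes were called higher (361 to 1094 CPM against 26.1 to 180), as were all 7 trophoblast genes (1672 to 2234 CPM against 146 to 302) and 1 of 9 primitive endoderm genes (929 to 1452 CPM against 489 to 642). Of 7 astrocyte genes, 5 were tested, 3 were called higher and 2 lower, the sum was 18.7 to 32.0 CPM against 163 to 203, and S100b had no read in WT. Of 5 oligodendrocyte precursor genes 2 were called in each direction (47.1 to 96.3 CPM against 9.57 to 22.6), and of 4 endothelial genes 2 were higher (125 to 212 CPM against 50.2 to 67.0). Blood cell genes were at 17.6 to 26.6 CPM against 0.11 to 0.66, with Ptprc at 0 in WT. The part of these in the fall of the radial glia genes was not tested.

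A further 25 genes of radial glia and neural stem cells, of which 24 were tested here, showed how far the change went beyond the 10 markers. In Mbd3 KO, 15 were called lower and 3 higher, with a median of -1.29, where 14.2% and 19.6% of all genes tested were. Hes5, a Notch target, fell the most, from 108 ± 24.6 CPM to 0.87 ± 0.11 CPM (SD, n = 3), a log2 fold change of -6.93, followed by Ednrb, an endothelin receptor (-5.47). Those called higher were Clu, the secreted chaperone clusterin (3.69), Lifr, a cytokine receptor (1.32) and Mfge8, a secreted bridging protein (1.09). In MBD2a 13 were called lower and 2 higher against WT, where 13.7% and 16.9% of all genes tested were. In MBD2t these were 15 and 1, where 15.1% and 18.2% of all genes tested were. MBD3a, MBD3ΔMBD and MBD2aR181C had none called, where 0%, 0.0181% and 0.0181% of all genes tested were called in either direction.

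In MBD2aΔGR, Sox9 (-1.32), Hes5 (-1.22) and Fgfr3 (-1.16) were called lower than in WT and Lifr (2.07) and Clu (3.24) higher. In that comparison 2.47% of all genes tested were called lower and 2.69% higher. Pax6, a transcription factor of radial glia that is named here after its values were seen, was at 169 ± 27.6 CPM (SD, n = 3) in WT, 9.96 ± 5.66 CPM in Mbd3 KO and 156 ± 10.5 CPM in MBD2aΔGR. In MBD2a it had 58.9, 58.7 and 9.99 CPM. It was the 1 gene of the 24 called higher there than in Mbd3 KO (2.09 ± 0.46, adjusted p = 0.00648), where 0.856% of all genes tested were. Pax6 was still lower in MBD2a than in WT (-1.99, adjusted p = 0.000941). The genes called against WT in MBD2aΔGR were few and are named for that reason. Clu had 69.3, 67.0 and 1505 CPM in s16, s17 and s18 against 31.3 to 74.4 CPM in WT, and Lifr had 21.4, 21.5 and 159 CPM against 13.5 to 18.9 CPM, so that both rested largely on s18. Against MBD2a, 12 of the 24 genes were called higher in MBD2aΔGR and none lower, where 8.02% and 10.6% of all genes tested were.

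**Figure D5:**
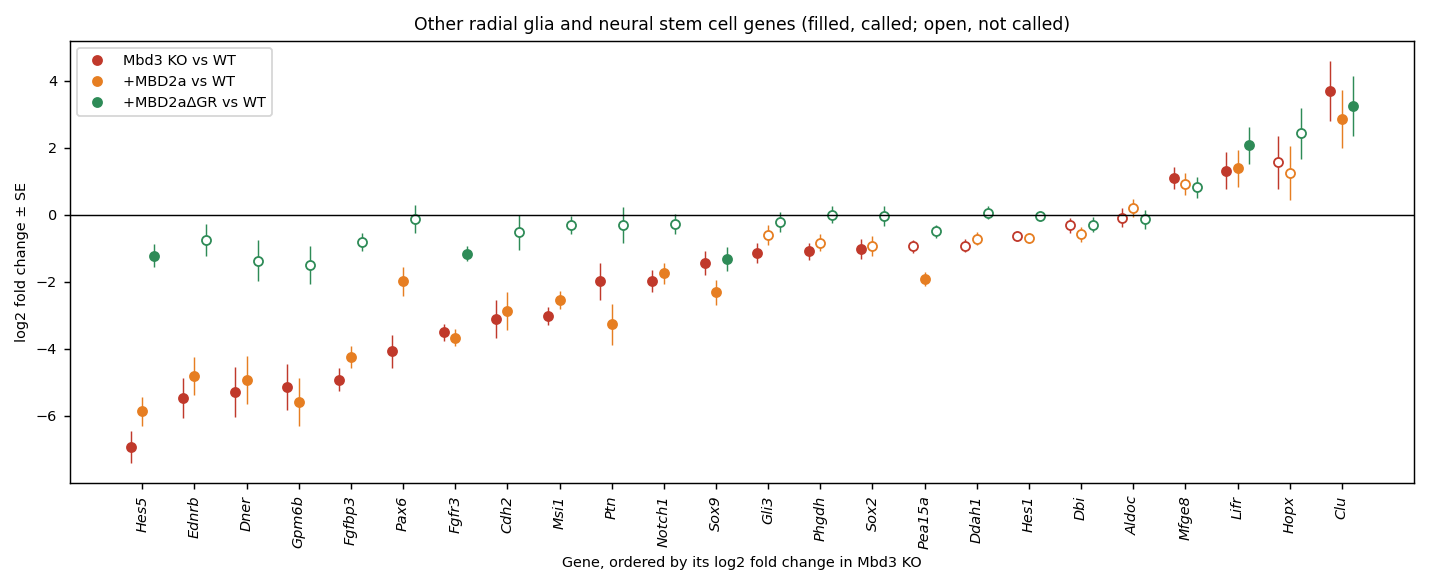
Log2 fold change against WT with its standard error (y) of 24 other radial glia and neural stem cell genes (x, ordered by Mbd3 KO) in Mbd3 KO (red), MBD2a (orange) and MBD2aΔGR (green), filled where called. The red points of 15 genes are filled below 0, and 3 green points are.

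Relatives and binding partners of the 10 genes did not move as a block. Of 22 such genes, 10 were called lower and 5 higher in Mbd3 KO, with a median of -0.79. The gene that fell the most was Ncan, the proteoglycan neurocan (-4.78), a relative of Bcan. Tnr, tenascin-R, fell too (-4.57), where its paralog Tnc was not called, and is named here after its values were seen. Among those that rose were Acan, the cartilage proteoglycan aggrecan (5.01), Gfap, the intermediate filament of astrocytes (0 to 0.14 CPM in WT, at or near the level of 3 counts, and 0.24 to 0.54 CPM in the KO), Prom2 (2.47), Fabp3 (2.18) and Ttyh2 (1.99), which are paralogs of Bcan, Vim and Nes, Prom1, Fabp7 and Ttyh1. Of all genes tested, 19.6% were called higher in Mbd3 KO and 14.2% lower. Other relatives in the same families fell, such as Ncan for Bcan. In MBD2aΔGR 1 of the 22 was called lower than in WT, the link protein Hapln1 (-4.12), and 1 higher, Sparc (2.62), the paralog of Sparcl1. In that comparison 2.47% of all genes tested were lower and 2.69% higher. The summed level of the 22 genes was 6053 CPM in library s18, against 2379 and 2268 CPM in s16 and s17. Sparc had 225, 216 and 3607 CPM in s16, s17 and s18 against 202 to 246 CPM in WT, so that only s18 lay above WT. Gfap, and Slc1a2 among the genes that fell, stand on the astrocyte list too.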

How the data were processed

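RNA-seq was analysed in 24 libraries, 3 per line, with line and library taken from the labels and column names. The deposited values are raw read counts per gene. According to the methods and labels, the authors trimmed single-end reads with Trim Galore 0.6.6, aligned them with STAR to mm9 and counted reads per gene with QuasR. Only genes with an Entrez identifier were kept. The ChIP samples were not analysed here.

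From these counts, edgeR 4.0.16 (R 4.3.3, limma 3.58.1) tested 16582 genes kept by filterByExpr in 1 quasi-likelihood fit of the 24 libraries with TMM scaling. A gene was called at a Benjamini-Hochberg adjusted p under 0.05 over all genes tested and an absolute log2 fold change above 1. Shares over all genes tested were not determined for unadjusted p-values, for DESeq2 or for fits with a library left out. Errors of log2 fold changes are standard errors, and errors of levels are SDs of 3 libraries. No gene was tested by permutation, since 3 libraries against 3 cannot go below p = 0.1. Log2 CPM used a prior count of 1. RPKM was computed here from exon lengths of the mm9 annotation, and promoters came from RefSeq on GRCm38.p6. With totals of 27993858 to 49392806 reads, counting error is small for genes with many reads and weighs most on genes under 1 CPM. It was not compared with the spread between libraries.

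The 10 genes and the lists (other radial glia and neural stem cell genes, paralogs and partners, neurons, astrocytes, oligodendrocyte precursors, pluripotent cells, primitive endoderm, mesenchyme and smooth muscle, trophoblast, endothelium and blood cells) were chosen with earlier results of these data known. All 10 genes are named. From each list only the 2 genes with the largest log2 fold change in Mbd3 KO and those going against most of the list could be named, which was done for the first 2 lists, the others being given as counts and sums. Exceptions are stated where they occur, and for each of the 10 genes up to 3 genes with the highest correlation are named. Alternatives were DESeq2 1.42.0, glmTreat, other scalings and filters, smaller fits and leaving out each library. Only the edgeR test was tried on simulated counts, for Mbd3 KO against WT alone and with the same spread for all genes. The other steps were not tested in this way.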

Additional observations from a re-analysis of the deposited data

How the results depend on the processing

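Of the 15 comparisons, 12 kept their count of called genes within 1.5 times under every alternative tried, leaving out 1 library included. In the other 3 the count changed, and the cause was not tested. For MBD2aΔGR against WT, 2 of the 10 genes were called as reported, 1 with glmTreat, with library size alone in place of TMM, without the filter on low counts, with edgeR's legacy test (an alternative chosen after seeing the data) or in a fit without MBD2t, 0 in a fit of only both lines, 3 with DESeq2 (which added Ttyh1), and 1 to 4 with a library left out. For MBD2a against Mbd3 KO, 1 gene was called as reported, 0 with glmTreat or in a fit of only both lines, and 0 to 1 with a library left out. For MBD2aΔGR against Mbd3 KO, 8 were called as reported, 4 with glmTreat or in a fit of only both lines, and 6 to 10 with a library left out, where the 10 (without s04) were 8 higher and 2 lower (Sparcl1 and Tnc). With each library left out, the counts were 8 to 9 for Mbd3 KO against WT, 7 to 9 for MBD3ΔMBD against Mbd3 KO, 5 to 8 for MBD2aΔGR against MBD2a, and 6 to 8 for MBD2aR181C against MBD2a. They stayed at 8 for MBD2a against WT and MBD3a against Mbd3 KO, at 9 for MBD2t against WT, at 7 for MBD2aR181C against Mbd3 KO and at 0 for MBD3a, MBD3ΔMBD and MBD2aR181C against WT and MBD2t against Mbd3 KO.

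Changes of sign were seen in 6 cases, all of genes that were not called and all on leaving out 1 library. With each library left out, the log2 fold change of Tnc ran from -0.013 (without s03) to 0.93 for Mbd3 KO against WT, from -1.16 to 0.24 (without s02, and 0.11 without s15) for MBD2a against WT, and from -0.70 to 0.24 (without s02) for MBD2t against WT. That of Nes ran from -0.47 to 0.018 (without s18) for MBD2aΔGR against WT, and that of Bcan from -0.30 (without s16) to 0.88 for MBD2aΔGR against MBD2a. No paired analysis was possible because the deposited columns carry no replicate numbers shared between lines. Genes under 1 CPM rest on few reads, and their fold changes depend on them the most. By their mean these were Fabp7 and Bcan in the low lines, Sparcl1 in MBD2a, Tnc in MBD2aΔGR and Gfap in all. Single libraries under 1 CPM were also found for Bcan in MBD2aΔGR, Sparcl1 in Mbd3 KO and Tnc in several lines.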
